A study of Mus musculus with 16 samples.

Results

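The pyruvate dehydrogenase genes examined here were 10 genes chosen by symbol in the deposited count table, out of 35682 genes in all. They were the complex subunits Pdha1, Pdhb, Dlat and Pdhx, the kinases Pdk1, Pdk2, Pdk3 and Pdk4, and the phosphatases Pdp1 and Pdp2. Each symbol matched a single row, and all 10 passed the low-count filter that kept 10945 genes for testing. RNA came from ventricular myocytes isolated by Langendorff perfusion from adult mice, plated briefly, 9 weeks after TAC (transverse aortic constriction), an operation that narrows the aorta and so loads the left ventricle. The groups were 8 wild-type (WT) littermates and 8 B3AR-Tg mice, a transgenic line named for the beta-3 adrenergic receptor. Every mouse of both groups carried the constriction, and no unoperated group was analysed here. The promoter that drives the transgene, the species of its sequence, and the age and sex of the animals are not given in the sources used here.

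The pyruvate dehydrogenase complex sits in the mitochondrial matrix and turns pyruvate into acetyl-CoA, the step by which carbon from glucose and lactate enters the citric acid cycle. Its kinases phosphorylate the alpha subunit of its first enzyme and switch the complex off, and its phosphatases remove the phosphate and switch it on. In heart muscle, which mostly burns fatty acids, the kinase Pdk4 is known to rise with fasting and fatty acid supply, through nuclear receptors of the PPAR family. These are statements about proteins, and mRNA levels do not measure phosphorylation or flux.

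Library totals ranged from 6926821 to 11584656 counts in WT and from 5985335 to 14365864 in B3AR-Tg. All 8 cardiomyocyte marker genes were detected, with summed levels of 64192 to 88735 CPM in WT against 70976 to 108090 CPM in B3AR-Tg (CPM, counts scaled to TMM-adjusted library totals). Of these 8, Ryr2 passed as higher in B3AR-Tg (log2 fold change 0.46, edgeR adjusted p = 0.0359) and 7 did not pass. Mouse Adrb3 had at most 4 counts in any library and does not check the labels. Adgrb3, an adhesion receptor gene that the labels do not name, had the smallest p of all genes. It separated the groups without overlap, at 0 to 0.293 CPM in WT against 37.8 to 58.0 CPM in B3AR-Tg. It was picked from this same comparison, so it is no independent check of the labels. Markers of other cells were present and lower in B3AR-Tg: 3 of 5 tested fibroblast markers and 2 of 6 endothelial markers fell, while 0 of 5 mural and 0 of 2 tested leukocyte markers passed the test. Summed fibroblast markers were 31.5 to 89.1 CPM in WT against 9.18 to 40.9 CPM in B3AR-Tg, and summed endothelial markers were 76.1 to 114 CPM and 36.1 to 137 CPM. All 5 load markers (Nppa, Nppb, Myh7, Acta1 and Ankrd1) fell, from summed levels of 4805 to 18137 CPM in WT to 1920 to 6506 CPM in B3AR-Tg. In bulk RNA of this kind, fewer cells of a type and less RNA per cell cannot be told apart.

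Of the 10 genes, 1 differed between genotypes over all tested genes. Pdp2, a phosphatase that reactivates the complex, was higher in B3AR-Tg by 1.48-fold. The other 9, including every subunit and every kinase, did not pass. Of all tested genes 4.91% passed at an edgeR adjusted p under 0.05, 2.03% as higher and 2.88% as lower in B3AR-Tg, so 1 call among 10 genes is close to the background. Log2 fold changes were above 0 for 5 genes and below 0 for 5, with a median of 0.01, the same as the 0.01 over all tested genes. The groups overlapped for all 10 genes, where 0.448% of tested genes had groups that did not overlap (0.201% with all B3AR-Tg animals above and 0.247% with all below).

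**Figure D1:**
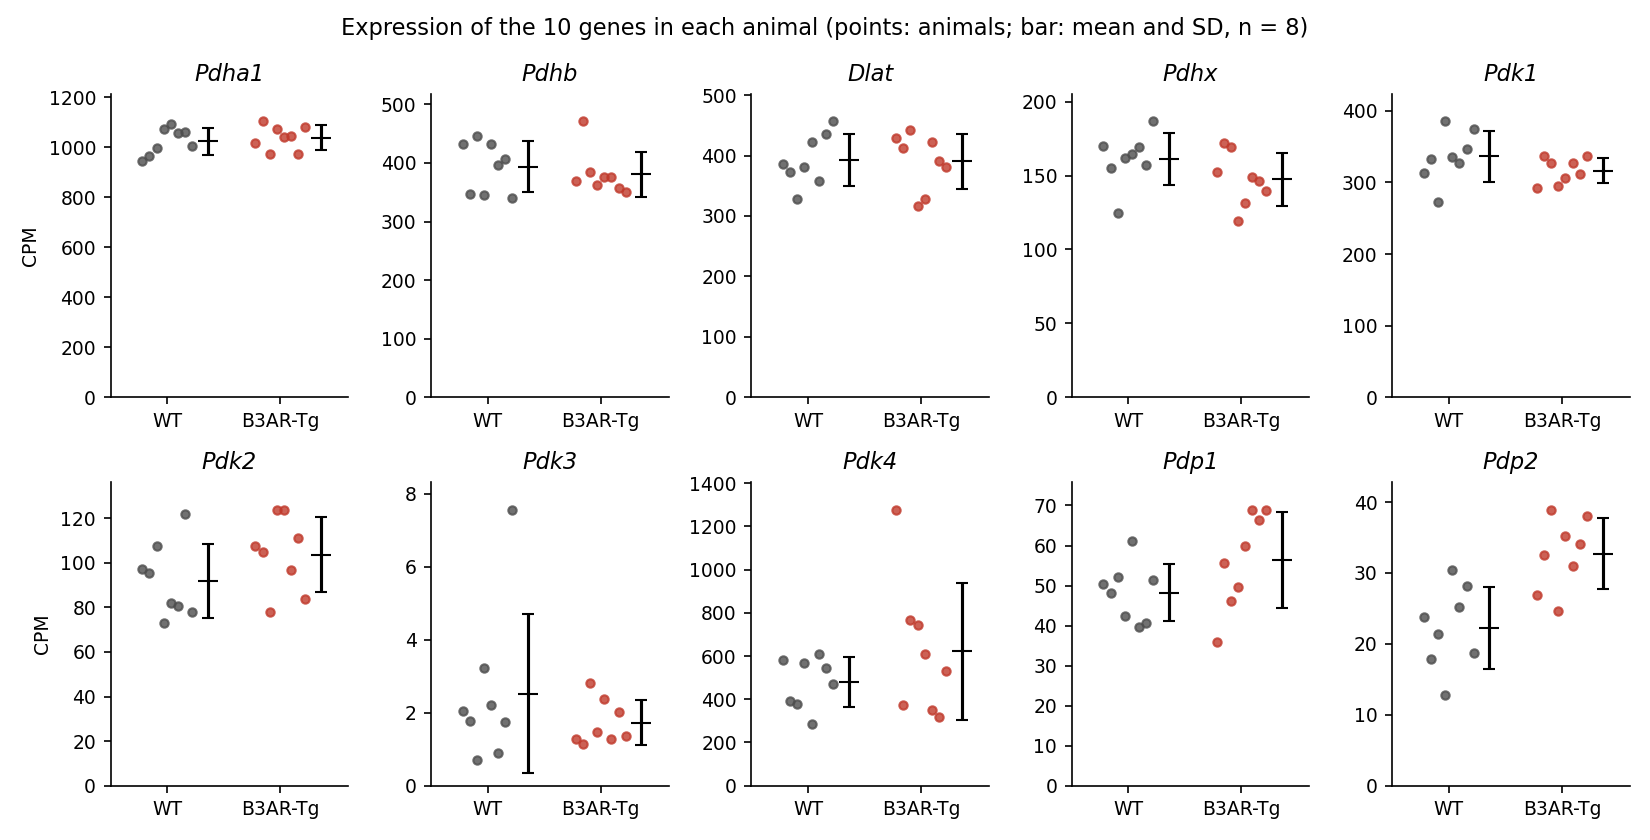
Expression of the 10 genes in each of the 16 animals, in CPM on a linear axis from 0 (points, animals in order of replicate number; bar, mean and SD of 8 animals). The 8 B3AR-Tg values of Pdp2, 24.7 to 38.9 CPM, lie above the WT median of 22.6 CPM; 1 B3AR-Tg animal stands far above the rest for Pdk4 at 1278 CPM, and 1 WT animal for Pdk3 at 7.57 CPM.

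The subunits differed little between animals, with Pdha1 the most even of the 10 genes in both groups. Pdha1 and Pdhb encode the alpha and beta chains of the first enzyme, which decarboxylates pyruvate; Pdha1 (ENSMUSG00000031299) lies on chromosome X from 160122209 to 160138413 and Pdhb (ENSMUSG00000021748) on chromosome 14 from 8165996 to 8173025, both on the minus strand (build GRCm38, GENCODE M21; the genes below likewise). Pdha1 in WT had a lowest value of 946 CPM, a median of 1030 CPM and a highest of 1090 CPM, and in B3AR-Tg 970 CPM, 1042 CPM and 1104 CPM. The highest Pdha1 library was 1.15 times the lowest in WT and 1.14 times in B3AR-Tg, and the coefficient of variation (SD over mean) was 5.22% and 4.73%. Only 0.539% of tested genes had a smaller coefficient of variation in WT, and 0.402% in B3AR-Tg.

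The log2 fold change of Pdha1 was 0.02 ± 0.06 (SE; edgeR adjusted p = 0.908) and its 95% interval was 0.924-fold to 1.11-fold. Some exon sequence of Pdha1 is shared with Map3k15, a neighbour on the opposite strand that had 8 to 45 counts per library, and strand handling is not given in the sources used here. Pdhb ranged from 341 to 446 CPM around a median of 402 CPM in WT, and from 351 to 472 CPM around 372 CPM in B3AR-Tg. The highest Pdhb value belonged to B3AR-Tg replicate 2, while the other 7 animals of that group were at 385 CPM or less. Its log2 fold change was −0.05 ± 0.08 (SE; edgeR adjusted p = 0.805; 95% interval 0.86-fold to 1.09-fold).

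Dlat (ENSMUSG00000000168, chromosome 9, 50634633 to 50659780, minus strand) encodes the acetyltransferase that forms the core of the complex, and Pdhx (ENSMUSG00000010914, chromosome 2, 103021075 to 103073513, minus strand) encodes the protein that anchors the dihydrolipoamide dehydrogenase to that core. Dlat was at 393 ± 42.8 CPM in WT against 390 ± 46.1 CPM in B3AR-Tg (mean ± SD, n = 8 each). The sign of its log2 fold change, −0.01 ± 0.09 (SE; edgeR adjusted p = 0.973), turned under library-size scaling. Pdhx ranged from 125 to 187 CPM with a median of 163 CPM in WT, and from 119 to 172 CPM with a median of 148 CPM in B3AR-Tg. Its log2 fold change was −0.13 ± 0.09 (SE; edgeR adjusted p = 0.445; 95% interval 0.805-fold to 1.04-fold).

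Dlat and Pdhx varied together between animals of one genotype. With the genotype means removed, their log2 CPM correlated at r = 0.805 over 16 animals (permutation within genotype, p = 0.00032, adjusted over 45 gene pairs 0.0072; Spearman's rho = 0.671, adjusted permutation p = 0.167). The correlation was 0.704 within WT and 0.892 within B3AR-Tg. WT replicate 3 and B3AR-Tg replicate 4 were the lowest of their groups in both genes, and without these 2 animals r was 0.643. All such correlations share the library and its scaling factor.

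Among the kinases, Pdk4 was the most abundant per length and Pdk3 had the lowest counts. The coefficient of variation was highest for Pdk3 in WT (86.5%, against 24.4% for Pdk4) and for Pdk4 in B3AR-Tg (51%, against 35.9% for Pdk3). Both highest values include an animal far above its group, WT replicate 8 for Pdk3 and B3AR-Tg replicate 1 for Pdk4. Levels of different genes can be set side by side only per length of transcript. In WT, Pdk4 was at 137 ± 33.5 CPM per kb, Pdk1 at 64.9 ± 6.81 CPM per kb, Pdk2 at 40.9 ± 7.43 CPM per kb and Pdk3 at 1.19 ± 1.03 CPM per kb (SD, n = 8). The ranges of these 4 kinases in WT did not overlap, apart from those of Pdk1 (52.6 to 74.4) and Pdk2 (32.6 to 54.2). By this measure Pdk4 made up 55.5% ± 6.34 of kinase mRNA in WT and 59.4% ± 11.3 in B3AR-Tg, and its share ran from 44.5% in WT replicate 5 to 77.8% in B3AR-Tg replicate 1.

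**Figure D2:**
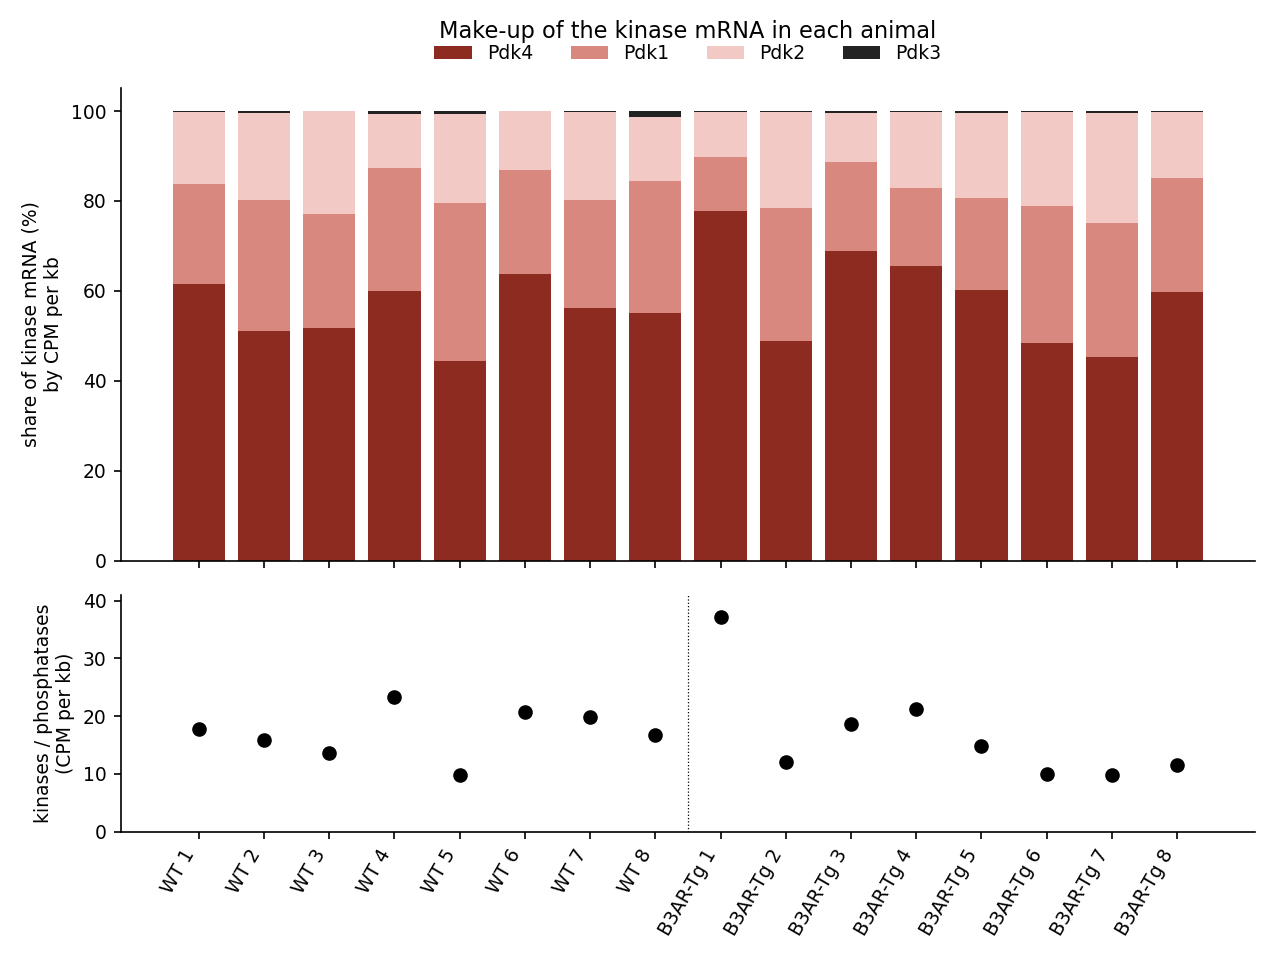
Upper panel, share of Pdk4, Pdk1, Pdk2 and Pdk3 in the summed kinase mRNA of each animal, in percent of CPM per kb; lower panel, summed kinase over summed phosphatase mRNA on the same scale. Pdk4 is the largest part in every animal, from 44.5% to 77.8%, and the ratio runs from 9.75 in WT replicate 5 to 37.2 in B3AR-Tg replicate 1.

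Set against the subunits on the same scale, the order of mean levels in WT was Pdha1 (359 CPM per kb), Pdhb (260), Pdk4 (137), Dlat (97.3), Pdk1 (64.9), Pdhx (41.0), Pdk2 (40.9), Pdp1 (10.7), Pdp2 (3.92) and Pdk3 (1.19). Neighbours in that order whose WT ranges overlapped were Pdk4 and Dlat, Pdhx and Pdk2, and Pdp2 and Pdk3. The last overlap came from WT replicate 8, without which the highest Pdk3 was 1.52 CPM per kb, below the lowest Pdp2 at 2.26 CPM per kb. Dld, the dehydrogenase that the complex shares with other 2-oxoacid dehydrogenases, was at 111 ± 11.9 CPM per kb, near Dlat. The place of Pdhx depends on the length used, since the length of its longest coding transcript gave 64.4 CPM per kb, beside Pdk1.

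Pdk4 (ENSMUSG00000019577) is on chromosome 6 from 5483351 to 5496309, minus strand. In WT its lowest value was 286 CPM, its median 507 CPM and its highest 611 CPM. In B3AR-Tg these were 319 CPM, 571 CPM and 1278 CPM. The highest, in B3AR-Tg replicate 1, rested on 19095 counts in the deepest library, and the next animal of that group was at 765 CPM. Of the B3AR-Tg animals 4 were above the highest WT animal, 3 were below the WT median and 0 were below the lowest WT animal.

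The mean Pdk4 level was 479 ± 117 CPM in WT against 622 ± 317 CPM in B3AR-Tg, which is a log2 difference of 0.38 ± 0.24 (SE; edgeR adjusted p = 0.409; 95% interval 0.923-fold to 1.83-fold). Without B3AR-Tg replicate 1 the group mean was 528 ± 187 CPM (n = 7), the log2 fold change was 0.15 and the adjusted p was 0.747. The coefficient of variation was 24.4% in WT and, with replicate 1 included, 51% in B3AR-Tg. With that animal included, 96.8% of tested genes were less variable among the B3AR-Tg animals.

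Pdk1 (ENSMUSG00000006494, chromosome 2, 71873224 to 71903858, plus strand), a kinase known as a target of hypoxia-inducible factor, was held in a narrow band. It ranged from 273 to 386 CPM in WT, against 292 to 337 CPM in B3AR-Tg, where only 1.02% of tested genes were less variable. Its log2 fold change was −0.09 ± 0.07 (SE; edgeR adjusted p = 0.55; 95% interval 0.846-fold to 1.05-fold). Pdk2 (ENSMUSG00000038967, chromosome 11, 95026258 to 95041354, minus strand), a kinase found in most tissues, had a median of 88.7 CPM in WT (73.1 to 122) and of 106 CPM in B3AR-Tg (77.8 to 124). Its log2 fold change was 0.17 ± 0.11 (SE; edgeR adjusted p = 0.437; 95% interval 0.955-fold to 1.33-fold).

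Pdk3 (ENSMUSG00000035232, chromosome X, 93764607 to 93832201, minus strand) had 6 to 77 counts per library. In WT 7 animals lay between 0.712 and 3.21 CPM and replicate 8 was at 7.57 CPM, and the B3AR-Tg animals lay between 1.15 and 2.82 CPM. The log2 fold change was −0.58 ± 0.38 (SE; edgeR adjusted p = 0.423), and without WT replicate 8 it was −0.09 (adjusted p = 0.91). The transcripts of the 4 kinases were at most 69.4% identical over the aligned stretches, and how reads that match several genes were assigned is not given in the sources used here. The subunits had closer matches. Gm6123 was 97.0% identical to Pdhb over 1079 bases and had 0 to 4 counts per library. For Pdha1, 4930519F09Rik was 90.1% identical over 1118 bases, and for Pdhx, Gm18908 was 88.6% identical over 1505 bases, both with 0 counts.

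Summed, the phosphatases had far less mRNA than the kinases, although Pdk3 alone had a lower mean per length than Pdp1 or Pdp2. Summed kinase mRNA was 17.2 ± 4.28 times summed phosphatase mRNA per length in WT and 16.9 ± 9.17 times in B3AR-Tg, with medians of 17.2 and 13.5. B3AR-Tg replicate 1, at 37.2, raises the B3AR-Tg mean and SD, and without it the ratio was 14 ± 4.47 (n = 7, 9.77 to 21.3). Pdp1 (ENSMUSG00000049225, chromosome 4, 11958184 to 11966452, minus strand) is the calcium-stimulated form, and Pdp2 (ENSMUSG00000048371, chromosome 8, 104591451 to 104599026, plus strand) is the form that does not need calcium. By length, Pdp2 was 26.7% ± 5.56 of phosphatase mRNA in WT and 31.9% ± 4.65 in B3AR-Tg.

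The 200 bases from 250 to 51 before the RefSeq start are shown for Pdp2 and Pdk4. Pdp2 was the gene that passed. Pdk4 was the most variable of the 10 genes between B3AR-Tg animals, with replicate 1 included. Both are on build GRCm38.p6, chr8:104591222-104591421 on the plus strand for Pdp2 and chr6:5496329-5496528 on the minus strand for Pdk4, and are printed 5′ to 3′ along the gene. Capitals mark matches, on either strand, to the nuclear receptor half-site AGGTCA, the forkhead core TGTTTAC, the cAMP-response half-site TGACG, the hypoxia-response core ACGTG, the GC box GGGCGG and the CCAAT box.
Pdp2: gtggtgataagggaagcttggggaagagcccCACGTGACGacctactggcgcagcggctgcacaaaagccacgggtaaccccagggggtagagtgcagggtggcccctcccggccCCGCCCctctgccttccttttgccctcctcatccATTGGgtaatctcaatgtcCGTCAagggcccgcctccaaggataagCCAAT
Pdk4: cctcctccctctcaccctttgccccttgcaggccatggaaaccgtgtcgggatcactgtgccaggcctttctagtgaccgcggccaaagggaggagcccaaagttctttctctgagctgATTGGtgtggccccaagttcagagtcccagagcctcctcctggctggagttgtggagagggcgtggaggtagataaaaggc

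The Pdp2 stretch held TGACG at 2 places, ACGTG on both strands of a palindrome that overlaps the upstream TGACG, a single GC box and 2 CCAAT boxes. The Pdk4 stretch held a single CCAAT box and no match to the other motifs. Over 300 bases around the start, 20.8% of 32851 mouse promoters in the RefSeq table held TGACG, 19.6% ACGTG, 35.7% the GC box and 37.4% the CCAAT box. AGGTCA was found in 16.3% of them and TGTTTAC in 3.65%, and in none of the 9 member genes with an entry in that table. Over the same 300 bases, TGACG was also found in Pdha1, Pdhb, Dlat and Pdk2, and ACGTG in Pdhb, Pdk2 and Pdk3. These genes did not pass between genotypes, so the strings do not set Pdp2 apart. A match is a string of letters and no evidence of binding.

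Pdp2 in WT had a lowest value of 12.9 CPM, a median of 22.6 CPM and a highest of 30.5 CPM. In B3AR-Tg these were 24.7 CPM, 33.3 CPM and 38.9 CPM. All 8 B3AR-Tg animals were above the WT median and 6 were above the highest WT animal, while 5 WT animals were below the lowest B3AR-Tg animal. The means were 22.3 ± 5.77 CPM and 32.7 ± 5.02 CPM, which is a log2 difference of 0.56 ± 0.14 (SE; edgeR adjusted p = 0.0272; 95% interval 1.2-fold to 1.82-fold), on 144 to 474 counts per library. The exact permutation test of this gene alone over the 12870 splits of the animals gave an unadjusted two-sided p of 0.00264.

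The call for Pdp2 was close to the threshold. Its log2 fold change stayed between 0.48 and 0.65 under 26 alternatives, but the call was lost without WT replicate 2 (adjusted p = 0.0544), WT replicate 8 (0.0531), B3AR-Tg replicate 5 (0.0579) or B3AR-Tg replicate 8 (0.0598), and with the marker level of non-myocyte cells as a covariate (log2 fold change 0.51, standard error 0.21, adjusted p = 0.274). That marker level, the mean log2 CPM of fibroblast, endothelial, mural and leukocyte markers, was 1.79 to 2.39 in WT and 0.297 to 1.90 in B3AR-Tg. Within a genotype, the correlation of Pdp2 with it was r = 0.107 for WT (exact permutation p = 0.807, n = 8) and −0.305 for B3AR-Tg (exact permutation p = 0.467, n = 8).

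Pdp1 had a median of 49.3 CPM in WT (39.6 to 61.1) and of 57.8 CPM in B3AR-Tg (35.9 to 69.0). The groups overlapped widely, and B3AR-Tg animals held both the lowest and the highest values. The log2 fold change was 0.23 ± 0.12 (SE; edgeR adjusted p = 0.337; 95% interval 0.977-fold to 1.4-fold).

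**Figure D3:**
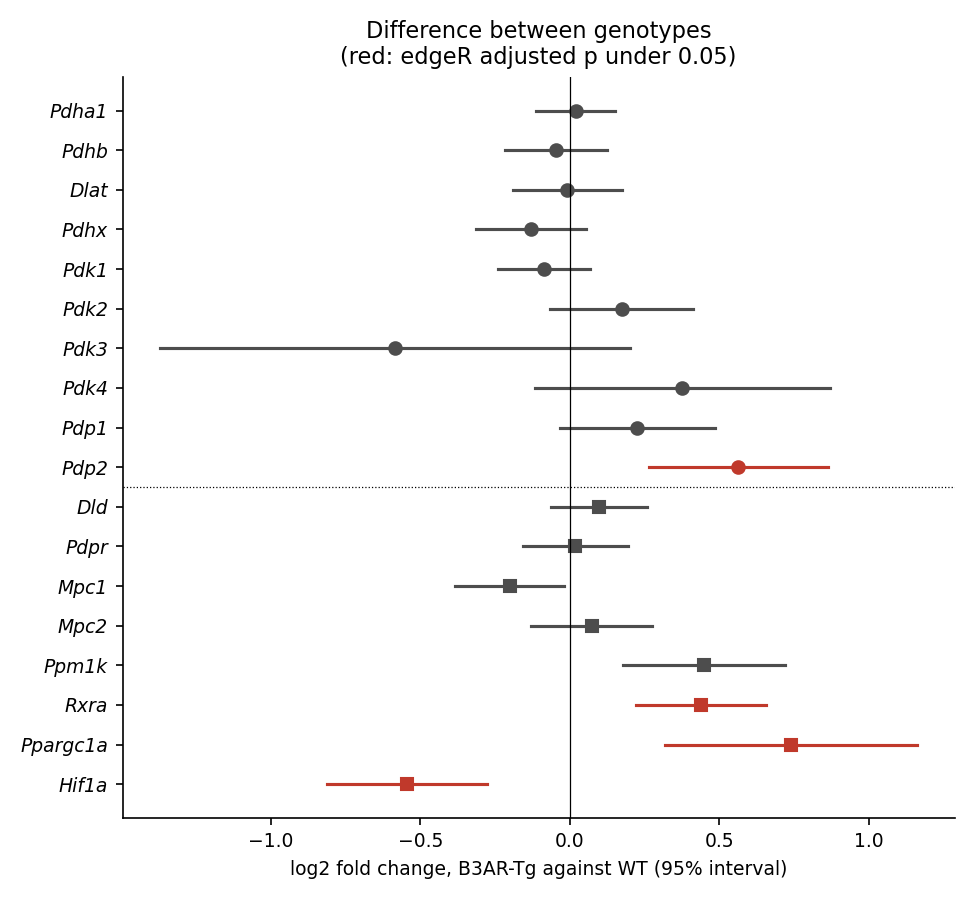
Log2 fold change of B3AR-Tg against WT with its 95% interval for the 10 genes (circles, above the dotted line) and for selected pathway genes (squares). Red marks an edgeR adjusted p under 0.05: Pdp2 at 0.56, Rxra at 0.44, Ppargc1a at 0.74 and Hif1a at −0.54.

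Pdp1 was lower in animals with more Pdk4, in both genotypes. With genotype means removed, r was −0.854 over 16 animals (permutation within genotype, p = 0.00015, adjusted over 45 pairs 0.00675) and Spearman's rho was −0.826 (adjusted permutation p = 0.0158). The correlation was −0.825 within WT and −0.866 within B3AR-Tg. B3AR-Tg replicate 1 had the highest Pdk4 and the lowest Pdp1 (35.9 CPM), and WT replicate 5 had the lowest Pdk4 and, at 61.1 CPM, the highest Pdp1 of its group. Without the 2 animals farthest from the median of Pdk4, B3AR-Tg replicates 1 and 7, r was −0.752, and leaving out each animal in turn gave −0.891 to −0.761. With libraries scaled by their totals only, r was −0.734 (adjusted permutation p = 0.043).

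**Figure D4:**
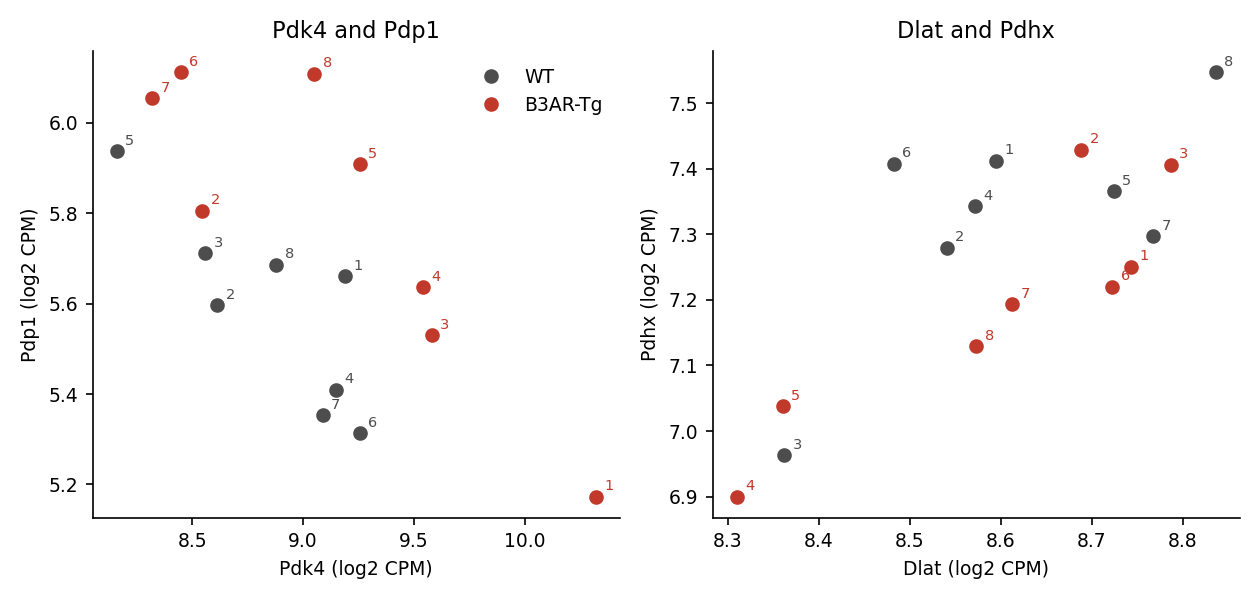
Log2 CPM of Pdk4 against Pdp1 (left) and of Dlat against Pdhx (right) in each animal, numbered by replicate. Pdk4 and Pdp1 fall along a descending line in each genotype (r = −0.825 in WT, −0.866 in B3AR-Tg), with B3AR-Tg replicate 1 at the lower right; Dlat and Pdhx rise together, with B3AR-Tg replicate 4 and WT replicate 3 at the lower left.

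These were the 2 pairs of 45 that passed after adjustment, and 7 pairs had an unadjusted permutation p under 0.05. Pdk4 correlated at r = −0.123 with Pdk1, −0.004 with Pdk2 and −0.259 with Pdp2. Pdk1 and Pdk2 went in opposite directions (r = −0.583), as did Pdhx and Pdk2 (−0.58), and Pdhx and Pdk1 went together (0.64), but their adjusted p-values were between 0.164 and 0.191. Over all 10944 other tested genes, Pdp1 had the fourth most negative correlation with Pdk4, after Sh3rf2 as the most negative (r = −0.905).

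**Figure D5:**
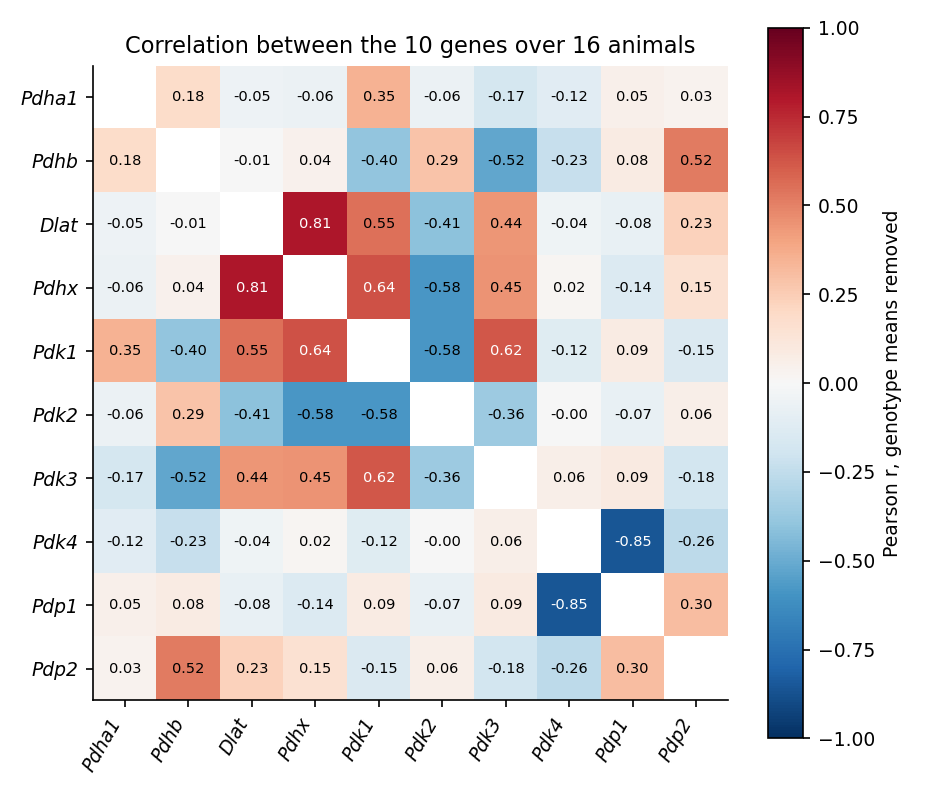
Pearson correlation of log2 CPM between the 10 genes over 16 animals, with each genotype's mean removed (red, positive; blue, negative). The strongest cells are Pdk4 with Pdp1 at −0.85 and Dlat with Pdhx at 0.81; only these 2 of 45 pairs passed after adjustment.

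The genes most like Pdk4 over the 16 animals, by the same correlation with genotype means removed, were Thbd, the thrombin receptor thrombomodulin (r = 0.878), Rusc2 (0.834), Rbp7, a retinol-binding protein (0.824), Sgms1, a sphingomyelin synthase (0.819), and Zbtb16, a zinc finger transcription factor (0.81). Those most like Pdp2 were Bzw2 (0.911), Tmx2 (0.891), Fcgrt, the neonatal Fc receptor (0.88), Dhrs7c, a dehydrogenase of the sarcoplasmic reticulum (0.865), and Grb14, an adaptor of the insulin receptor (0.846). They are the highest of 10944 genes and are given as a description.

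No correlation of the 10 genes with the load markers within a genotype passed after adjustment over 20 relations. In WT, Pdhb was lower in animals with a higher mean load marker level (r = −0.89, rho = −0.738, exact permutation p = 0.0109 and 0.0458, adjusted 0.168 and 0.431), as was Pdp2 (r = −0.76, rho = −0.667, exact permutation p = 0.029 and 0.0831, adjusted 0.193 and 0.431). In B3AR-Tg the corresponding r values were 0.045 and 0.168. The other relations with an unadjusted p under 0.05 were Pdha1 in B3AR-Tg (r = −0.78, rho = −0.595, exact permutation p = 0.0168 and 0.132, adjusted 0.168 and 0.431) and Pdk3 in WT, with the opposite sign (r = 0.709, rho = 0.643, exact permutation p = 0.0439 and 0.0962, adjusted 0.22 and 0.431). For Pdk4 r was 0.137 in WT (exact permutation p = 0.735) and −0.314 in B3AR-Tg (exact permutation p = 0.453). Without the 2 WT animals farthest from the median load level, replicates 2 and 4, r was −0.787 for Pdhb, −0.519 for Pdp2 and 0.943 for Pdk3, and for Pdha1 in B3AR-Tg it was −0.644 without replicates 7 and 8. Among the B3AR-Tg animals, Pdhb was lower where the marker level of non-myocyte cells was higher (r = −0.926, exact permutation p = 0.00131, adjusted over 20 relations 0.0262; rho = −0.881, adjusted 0.145; r = −0.896 without replicates 2 and 4), and in WT r was −0.227.

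The genes around the complex were taken from 6 lists with 51 genes, of which 48 were tested. Of these, 2 were higher and 1 was lower in B3AR-Tg, all 3 of them regulators of kinase transcription, and 45 did not pass. Over all tested genes 4.91% passed, so 3 calls among 48 genes are close to the background. The 3 calls lay among 10 tested regulators, of which 9 had a log2 fold change above 0 and 5 an unadjusted edgeR p under 0.05. Over the 48 genes these counts were 37 and 16. Over all tested genes they were 5595 of 10945 and 19.3%. The median log2 fold change of the 48 genes was 0.09. Rxra, the partner with which PPAR receptors bind DNA, rose from 27.4 ± 4.61 to 37.0 ± 4.39 CPM (log2 fold change 0.44, edgeR adjusted p = 0.0202). Ppargc1a, a coactivator of mitochondrial gene expression, rose from 86.0 ± 13.4 to 143 ± 69.3 CPM (log2 fold change 0.74, edgeR adjusted p = 0.0384). By medians the Ppargc1a rise was smaller, from 87.1 to 118 CPM, with all 8 B3AR-Tg animals above the WT median. The highest B3AR-Tg animal, at 290 CPM, raises the mean and SD of its group. Hif1a, the oxygen-regulated factor, fell from 165 ± 44.5 to 113 ± 11.8 CPM (log2 fold change −0.54, edgeR adjusted p = 0.0199).

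The Ppargc1a call was lost without any of 10 of the 16 animals (WT replicates 2, 4, 5, 6, 7 and 8 and B3AR-Tg replicates 1, 3, 5 and 6), with adjusted p-values of 0.0211 to 0.0721 over all 16 such fits. None of the 3 calls held with the marker level of non-myocyte cells as a covariate (adjusted p = 0.252 for Rxra, 0.365 for Ppargc1a and 0.355 for Hif1a), Hif1a was not called with library-size scaling, and Ppargc1a was not called with limma voom and sample quality weights. Ppara and Esrra, receptors that act on the Pdk4 gene, did not pass (log2 fold changes 0.33 and 0.28, edgeR adjusted p = 0.0709 and 0.0821).

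No correlation of Pdk4 with these regulators or the other PPAR target genes passed after adjustment over 18 relations. The highest correlation was with Ppargc1a (r = 0.687, permutation p = 0.0119, adjusted 0.214; rho = 0.582, adjusted 0.338), and r was 0.356 without B3AR-Tg replicates 1 and 7. Of the 8 other PPAR target genes, 0 passed between genotypes, 6 had a log2 fold change above 0 and 2 below, and 2 had an unadjusted edgeR p under 0.05. Over all tested genes, 5595 of 10945 were above 0 and 19.3% had an unadjusted p under 0.05. Acot1, an acyl-CoA thioesterase, was at 4.13 ± 2.53 CPM in WT against 8.17 ± 3.61 CPM in B3AR-Tg (log2 difference 1.00, edgeR adjusted p = 0.114), and its r with Pdk4 was 0.18.

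The partners of the complex did not pass in either direction, 4 of 4 tested, and Pdha2, the testis form of Pdha1, had no counts. Dld was at 284 ± 30.4 CPM in WT against 303 ± 22.5 CPM in B3AR-Tg (edgeR adjusted p = 0.521), and Pdpr, the regulatory subunit of the phosphatase, at 82.0 ± 8.04 and 83.0 ± 9.84 CPM (edgeR adjusted p = 0.939). Mpc1 and Mpc2 form the carrier that brings pyruvate into the mitochondrion. Mpc1 was at 654 ± 69.8 CPM in WT against 569 ± 66.0 CPM in B3AR-Tg (log2 difference −0.20, unadjusted p = 0.0321, edgeR adjusted p = 0.209), and 0 of the 8 B3AR-Tg animals were above the WT median. Mpc2 was at 225 ± 28.1 and 236 ± 34.8 CPM (log2 fold change 0.07, edgeR adjusted p = 0.73).

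Of the cofactor genes that supply lipoate and thiamine diphosphate, 0 of 12 tested passed, with a median log2 fold change of 0.00. Of the genes for pyruvate sources and other fates, 0 of 6 tested passed, and 6 of 6 had a value above 0 (median 0.10). Over all tested genes 5595 of 10945 had a value above 0, and the median absolute log2 fold change was 0.149. Among the related 2-oxoacid dehydrogenase complexes 0 of 8 passed, 7 of 8 had a value above 0, and 5 had an unadjusted edgeR p under 0.05, against 19.3% of all tested genes in either direction and 8.71% as higher. Ppm1k, the phosphatase of the branched-chain complex, was just outside the threshold, at 176 ± 38.8 CPM in WT against 241 ± 41.6 CPM in B3AR-Tg (log2 difference 0.45, edgeR adjusted p = 0.051), and it passed in 12 of 26 alternatives. Its kinase counterpart Bckdk had a log2 fold change of −0.05 (edgeR adjusted p = 0.727).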

How the data were processed

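The authors deposited whole-number counts per gene, 1 column per animal, with no normalization. Salmon and the build GRCm39 are named in the submitters' processing notes without a version or role, so the counts may be rounded estimates; the strand setting and annotation are not given in the sources used here. Columns were matched to animals by the name in each title. Per the labels' protocols, libraries were ribosome-depleted, stranded and read from both ends; the deposited totals are below the read depth stated there.

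Genotypes were compared by edgeR's quasi-likelihood test (version 4.0.16, R 4.3.3; limma 3.58.1 and DESeq2 1.42.0 as alternatives), with filterByExpr (minimum count 10, minimum total 15), TMM factors and genotype as the only term. P-values are two-sided, and adjusted values are Benjamini-Hochberg over 10945 genes, with a threshold of 0.05. CPM use TMM-scaled totals, and log2 CPM add a prior count of 2. A value of 3 counts corresponded to 0.201 to 0.487 CPM, which covers counting error only. Libraries of a group differed by more than sampling noise (chi-square per gene 6.04 to 59 over 56 pairs), and each was kept as 1 animal.

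Correlations used all 40320 orders of 8 animals or 100000 permutations within genotype. Lengths, gene positions and overlaps came from GENCODE M21, matched by gene ID and on GRCm38, not the build of the notes, and promoters from RefSeq on GRCm38.p6 by symbol (9 of 10 genes). Similar transcripts were searched with blastn. The test was first tried on simulated data with 200 changed genes. There edgeR recovered 31% of genes changed by a log2 value of 0.5 and 83% of those changed by 1. Of its calls, 0% and 7.26% were false. A gene of these data that did not pass may therefore still differ by such amounts where its 95% interval reaches them. The log2 intervals were −1.37 to 0.20 for Pdk3 and −0.12 to 0.87 for Pdk4. Those of the subunits, Pdk1, Pdk2 and Pdp1 stayed under 0.5 in size.

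The members and lists were chosen with earlier results of these data known. Named are all 10 members; up to 4 genes per list past the threshold; Dld, Mpc1, Mpc2 and Pdpr; and the 5 genes most correlated with Pdk4 and with Pdp2. Ppara, Esrra, Ppm1k, Bckdk, Acot1, Pdha2, Map3k15, Sh3rf2 and Adgrb3 were added after their values were seen, as were the correlations of Pdk4 with regulators and PPAR targets and of members with the non-myocyte marker level. Same-numbered animals did not deviate together (r −0.219 to 0.094 over 8 pairs), so the replicate numbers do not pair animals. The values of 1 PPAR target gene are not reported here.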

Additional observations from a re-analysis of the deposited data

Results flagged for a closer look

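For each of the 10 genes and each genotype, the gap between the highest or lowest animal and its nearest neighbour was compared with the whole range of the 8 animals. In 3 of 20 groups this share exceeded Dixon's 95% critical value, where chance flags about 1 in 20. Pdk4 in B3AR-Tg replicate 1 was at 1278 CPM (19095 counts) against 765 CPM in the next animal, a gap of 0.535 of the range. Pdk3 in WT replicate 8 was at 7.57 CPM (77 counts) against 3.21 CPM, a gap of 0.635 of the range. Pdhb in B3AR-Tg replicate 2 was at 472 CPM (5340 counts) against 385 CPM, a gap of 0.716 of the range. This animal also had the lowest non-myocyte marker level, 0.297 log2 CPM. The correlation of Pdhb with that level among the B3AR-Tg animals is given above (r = −0.926), and the cause of this value was not tested.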

How the results depend on the processing

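Over 26 alternatives, Pdp2 kept its sign in all 26 and was called in 21. The number of the 10 genes called ranged from 0 to 1 without single animals, and was 0 with the non-myocyte marker covariate, which left 15 genes called in the whole table and 0 in the pathway lists. The replicate block left 230 genes in the whole table (537 without it), and Pdp2 was still called (adjusted p = 0.0361); its log2 fold change was 0.58. Leaving out single animals gave 272 to 675 calls in the whole table (272 without WT replicate 4, 277 and 345 without B3AR-Tg replicates 5 and 8) and 2 to 5 in the pathway lists (5 without B3AR-Tg replicate 7), and DESeq2 gave 5 in the lists. The cause of these shifts was not tested. Log2 fold changes near 0 turned sign: Pdha1 was −0.0114 with the covariate, Pdhb 0.036 with library size only, and Dlat 0.0635 with library size only, 0.0096 without the low-count filter and between −0.0409 and 0.0301 without single animals. Library-size scaling moved the median of all genes to 0.08, gave 346 higher and 165 lower calls against 222 and 315, and let 4 pairs of the 10 genes pass against 2. The 95% intervals of Pdk4, Pdk2 and Pdp1 reach 1.83-fold, 1.33-fold and 1.4-fold, so differences of these sizes lie within the error of 8 animals per group.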
